A study of Mus musculus with 5 samples.

Results

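Lx and the other LINE-1 (L1) names outside the L1Md group made up 3704 of the 46641 repeat entries, and of the 154711 CpG regions and repeats of every class, that all 5 mouse libraries listed. Members were chosen by annotation alone: a repeat entry of class LINE/L1, in CpG context, whose family name does not begin with L1Md. The rule uses no methylation level, although the set was proposed with earlier results of these data known. Names beginning with Lx supplied 1944 entries in 21 families, and 93 other names supplied 1760 entries. The other names comprised the L1MA to L1ME series and further L1M names, the L1_Mus, L1_Mur and L1_Rod names, L1VL1, HAL1 names, 4 entries named X9_LINE, 1 entry named LX3, and 452 entries in 4 names that begin with L1Lx. L1Lx begins with L1 and not with Lx, and LX3 differs in letter case, so the rule placed both among the other names; L1Lx values are also given alone. Family sizes were uneven: 53 of the 114 families had at least 20 entries and together held 3351 of them, and 15 families had a single entry.

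Reduced representation bisulfite sequencing reads cytosine methylation in DNA cut with MspI, an enzyme whose sites hold a CpG, so it samples the CpG-rich part of the genome. The study set parthenogenetic stem cells, derived from an egg without a sperm genome, beside a female stem cell line and followed both toward the germ line. Each group had 1 library, all of the C57BL6 strain, so no difference has a replicate error and no test was possible. A difference between libraries compares those libraries, not the conditions.

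Female ESC is a female embryonic stem cell line and pESC a parthenogenetic one, each kept on feeder cells in serum medium with LIF, and in t2iL medium before induction. Feeder cells can add their own DNA to a stem cell library, and their share was not tested. ESC-PGCLC and pESC-PGCLC are primordial germ cell-like cells induced from these lines by way of epiblast-like cells (46 h) and floating aggregates (4 days) with BMP4, LIF, SCF and EGF. They were flow-sorted as cells positive for both CD61 and SSEA1. PGC are primordial germ cells taken from fetal gonads at E12.5 with SSEA1 magnetic beads. Whether other gonadal cells came along was not tested, so the PGC levels given here are those of the library. The sources used here state neither the sex of the fetuses nor whether gonads of several were pooled. Each PGCLC library rests on 1 stem cell line. The labels were checked at the CpG island of Airn, an imprinted noncoding RNA whose island is methylated on the maternal copy (chromosome 17, 12741440 to 12742489, mm10). Its level was 61.2% in pESC and 62.1% in pESC-PGCLC, 2.01% in female ESC and 1.03% in ESC-PGCLC, and 52.1% in PGC. The level was thus higher in both parthenogenetic libraries than in female ESC and its PGCLC, but PGC was also near the parthenogenetic level, so the island does not single those libraries out. Female ESC and ESC-PGCLC lacked the methylation of a maternal copy, which goes against what a female line with an intact imprint would carry, and pESC was below full methylation.

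L1 elements are retrotransposons that copy themselves through RNA; a complete copy holds a 5′ promoter, ORF1, ORF2, which encodes the reverse transcriptase, and a 3′ end. Reverse transcription starts at the 3′ end and often stops early, so most copies are 5′-truncated. L1Md elements include the families still active in the mouse, Lx elements spread earlier in the history of murine rodents, and the L1M names mark older, mammalian-wide remnants. DNA methylation silences L1 promoters in somatic cells, and primordial germ cells lose most of theirs while they colonise the gonad.

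Each entry carries a family name and a span in the family consensus, such as Lx8, bases 6332 to 7473, with no position in the genome. Whether 1 entry pools several genomic copies is not stated, and entries of 1 family can overlap in the consensus, so entries are not independent of each other. Entries of different families cannot be taken as independent either. An L1Lx_I entry (bases 729 to 883) and an L1Lx_II entry (1 to 584) had identical levels in every library, such as 39.0% in female ESC. The deposited level of an entry is a fraction, printed here as a percent; read depth is unknown, so no counting error can be given. An SD below is the spread over entries within 1 library, and not a replicate error. Median spans were 522.5 bases for Lx entries, 360 for the other names, 684.5 for L1Lx alone, and 1037 for L1Md entries. By the midpoint of the span, 3061 members (82.6%) lay in the last of 3 equal parts of the consensus, with its end taken as the largest position listed for the family. That share was 94.2% among Lx entries. Over the members, cytosines outside CpG in CHH context averaged between 0.610% (pESC) and 0.775% (ESC-PGCLC), where unconverted bases and true CHH methylation cannot be told apart.

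Lx entries were near 49.3% methylated in female ESC and lower in every other library. Their mean was 49.3% (SD 19.7 over 1944 entries) in female ESC and 44.5% in pESC; the induced libraries had 43.6% (ESC-PGCLC) and 41.2% (pESC-PGCLC), and PGC had 38.4% (SD 15.0). The other names ran in the same order, at 51.5% (SD 20.6 over 1760 entries), 45.7%, 45.2%, 42.0% and 39.7% (SD 15.7). Thus PGC was lowest in both sets, and pESC and ESC-PGCLC were nearly level. The PGC mean stood at 77.8% of the female ESC mean in Lx entries, at 77.0% in the other names, at 83.7% in L1Md entries and at 81.2% over all repeat entries. Well-methylated entries were the scarcest in PGC: 33.4% of members stood at 60% or more in female ESC and 19.0% in pESC, compared with 18.5% and 13.3% in the PGCLC induced from them and 7.53% in PGC. At the low end the libraries were closer, with between 9.15% (female ESC) and 11.1% (pESC-PGCLC) of members under 20%.

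**Figure D1:**
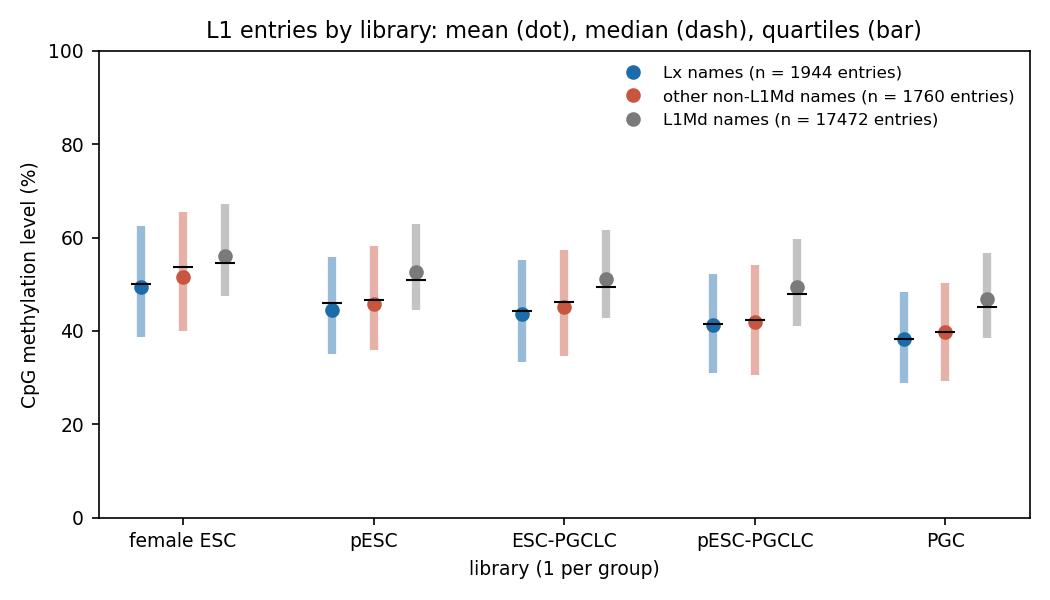
CpG methylation level in percent (y axis) by library (x axis, 1 library per group), for entries with Lx names, with other non-L1Md names and with L1Md names. Dots are means, dashes medians and bars the quartile range over entries; the means of Lx entries run from 49.3% in female ESC to 38.4% in PGC, below the L1Md means in each library.

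Lx entries averaged slightly below the other names in all 5 libraries. The gap, Lx minus other, was -2.19 percentage points in female ESC and -1.21 in pESC. The PGC gap was -1.30, and the induced libraries had -1.63 (ESC-PGCLC) and -0.768 (pESC-PGCLC). SDs over single entries were 15.0 or more, which do not measure the precision of the gap. The quartile ranges of both sets overlapped widely in every library. L1Lx entries, named alike but counted among the other names, had means above those of both sets: 51.8%, 46.9%, 46.0%, 44.0% and 41.6% in the same library order. Their medians were below those of the other names in female ESC (51.9% against 53.6%), pESC (46.5% against 46.7%) and ESC-PGCLC (45.8% against 46.2%). They were above in pESC-PGCLC (43.6% against 42.4%) and PGC (40.5% against 39.9%). The gap was not uniform over entry lengths. Among spans above 1000 and up to 2000 bases it was between -5.10 (female ESC) and -3.12 points (pESC-PGCLC). Above 2000 bases it was between -1.89 (pESC-PGCLC) and -0.0984 points (PGC), so it did not widen steadily with length. Among spans up to 100 bases it was 1.10 in female ESC and 1.04 in PGC, but -0.773 in pESC, -0.765 in ESC-PGCLC and -2.52 in pESC-PGCLC. In pESC-PGCLC the gap turned to 0.0692 points with each family of at least 20 entries counted once, and to 0.431 points with L1Lx and LX3 counted with Lx, an alternative chosen after seeing the data. The second of these settings also brought the gap to -0.361 in pESC, -0.928 in ESC-PGCLC and -0.0123 in PGC, and equal family weights to -0.580 in pESC and -1.06 in ESC-PGCLC. Medians gave -3.61 in female ESC, so the size of the gap depended on these choices in every library.

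The order of the libraries held in most family means and in fewer single entries. Averaging over many entries favours such a contrast, so it describes the means and is no trait of the families. All 24 families with at least 50 entries had their highest mean in female ESC and their lowest mean in PGC. Of the 53 families with at least 20 entries, 52 had their top mean in female ESC, and in 49 PGC was lowest. The exceptions were small and were named after their values were seen. Lx2A1 (42 entries) averaged 41.9% in pESC and 41.5% in female ESC, and L1MA4, L1MA6, L1MC and L1ME1 (20 to 26 entries each) were lowest in pESC-PGCLC, with a difference from PGC of -1.15 points or nearer 0. For all 5, medians or another choice of entries turned the order. Among single entries, 2445 of 3704 (66.0%) had their top level in female ESC, and in 1995 (53.9%) PGC was lowest.

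Family means stood closer together than single entries did, which averaging over at least 50 entries by itself brings about. Over the 24 families with at least 50 entries, female ESC means ran from 46.3% to 57.1%, whereas the SD over entries within a family was between 15.0 and 23.6 points. The highest family in female ESC was Lx6 (66 entries): its mean was 57.1% there and 51.4% in pESC, then 49.3% in ESC-PGCLC and 47.4% in pESC-PGCLC, while PGC had 44.4%. L1_Mur3 (59 entries) came next at 56.6% in female ESC and 43.3% in PGC, followed by L1MB7 at 54.1% and 39.7%, L1M2 at 53.8% and 42.1%, and Lx4A at 53.5% and 40.8%. Each of these 5 kept the same direction in every library against female ESC. The lowest family was Lx2 (126 entries), at 46.3%, 42.9%, 41.4%, 38.9% and 36.7% in the library order used above. The family named Lx without a number (106 entries) had 46.7% in female ESC and 36.5% in PGC, Lx5c 47.6% and 38.3%, Lx3_Mus 47.8% and 37.2%, and Lx3A 47.9% and 38.2%. The 5 lowest were thus all Lx families, although Lx6 and Lx4A were among the 5 highest. Lx names already made up 15 of the 24 families ranked. Without replicates it cannot be said which neighbours in this order differ.

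**Figure D2:**
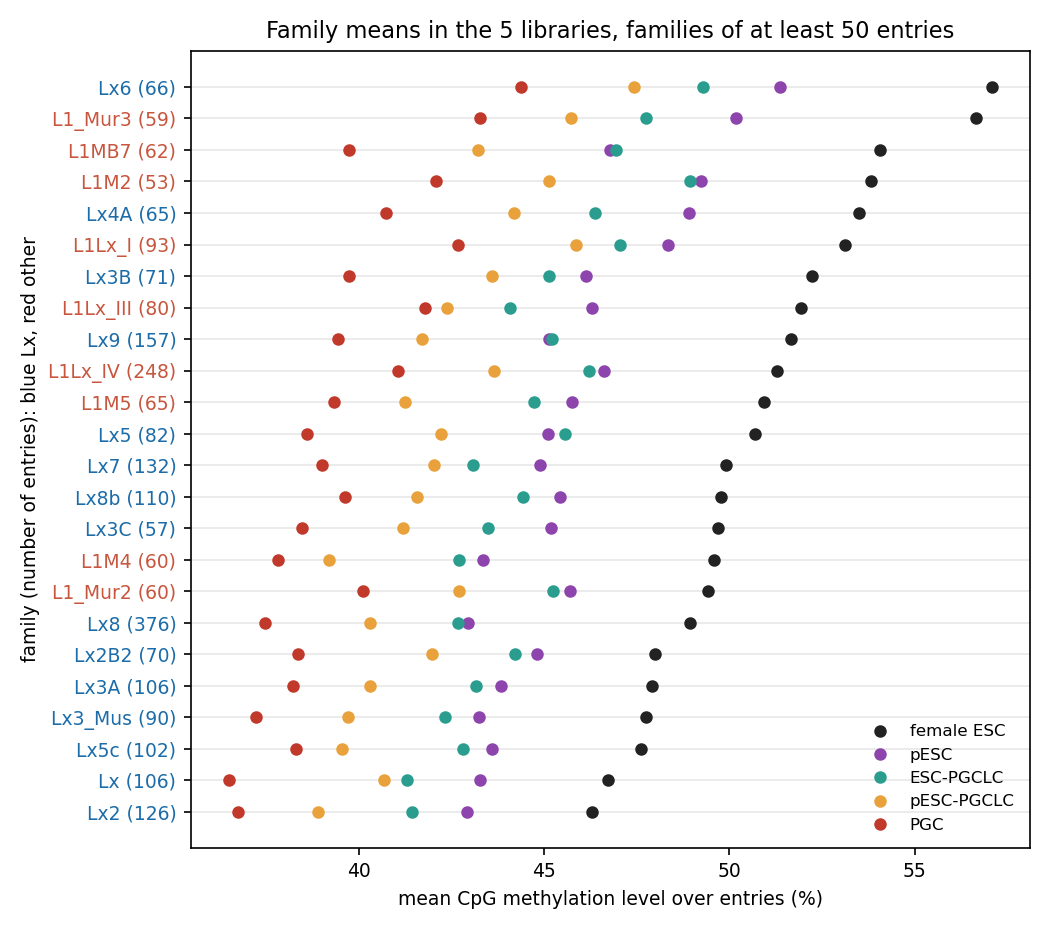
Mean CpG methylation level in percent (x axis, not starting at 0) of the 24 families with at least 50 entries (y axis, number of entries in brackets), with 1 dot per library. The female ESC dot is the rightmost and the PGC dot the leftmost in each family, and families run from Lx6 (57.1% in female ESC) down to Lx2 (46.3%).

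Grouped by name, the older mammalian-wide series had the lower PGC levels relative to female ESC. The PGC mean was 75.4% of the female ESC mean in L1MA names (121 entries), 74.0% in L1MB (238), 75.2% in L1MC (208), 72.7% in L1MD (91), 76.1% in L1ME (153) and 77.1% in the remaining L1M names (253). HAL1 names, L1-like elements that encode ORF1 alone, had the lowest ratio, 71.8% over 36 entries, from 48.3% in female ESC to 34.7% in PGC. The rodent names L1_Mus, L1_Mur and L1_Rod together stood at 78.9% over 182 entries, beside 77.8% for Lx. L1Lx at 80.4% and L1VL1 at 84.5% (21 entries, 53.9% against 45.5%) had the highest ratios, and the 5 entries of X9_LINE and LX3 fell in no name group. These groups also differed in span, whose median was 253 bases in L1ME names and 903 in L1VL1, and the part of span in the ratios was not tested.

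The comparison of pESC with female ESC asks how the parthenogenetic line differs from the female line. Lx entries were lower in pESC, with a mean difference of -4.81 points, and the other names with -5.79 points, beside -3.94 over all repeat entries and -3.37 over L1Md entries. Of the 3704 members, 2883 (77.8%) were lower in pESC and 805 higher, near the 76.6% of all repeat entries that were lower. At a difference of at least 25 points, 39 members were higher in pESC (0.753% of all repeat entries were) and 116 were lower (1.69% of all repeat entries). The members' shares were 1.05% and 3.13%, both above those of repeats at large. Without entries at exactly 0 or 100% in any library the higher count was 20. With the libraries brought to the same repeat mean the counts became 46 higher and 73 lower, and among spans of at least 200 bases 77 were lower. Such alternative counts, here and below, were made over the members only, with no share of all repeat entries beside them.

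Among named families L1MB7 differed most, with 46.8% in pESC against 54.1% in female ESC, a difference of -7.30 points. Lx9 followed at -6.52 points (45.1% against 51.7%) and L1_Mur3 at -6.47. The smallest differences belonged to 3 Lx families: Lx2B2 at -3.18 points, Lx2 at -3.38 and the family Lx at -3.45. Of the 24 families ranked, 15 had Lx names. Single entries went both ways. Those named here and for the later comparisons were picked for the largest differences among the members, and their read depth is unknown. An Lx3A entry (bases 6258 to 6976) had 3.23% in female ESC but 51.3% in pESC, 52.4% and 32.8% in ESC-PGCLC and pESC-PGCLC, and 42.9% in PGC, so female ESC alone was low. An Lx2A entry (5025 to 6976) had 6.25% in female ESC and between 30.5% (PGC) and 48.1% (pESC) elsewhere. On the other side an L1_Rod entry (5746 to 5843) had 90.9% in female ESC, 10% in pESC, 29.4% in each PGCLC library and 30.8% in PGC. Again female ESC was the library that stood apart, as it was in an Lx9 entry (5332 to 5847) at 85.7% against values from 15.9% to 34.6%. An Lx10 entry (7146 to 7549) was instead high in pESC, at 62.5%, with 20% in female ESC and 20% to 38% elsewhere.

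Induction of PGCLC was accompanied by lower mean levels in both lines. ESC-PGCLC differed from female ESC by -5.73 points in Lx entries and -6.29 in the other names, with -4.95 over all repeat entries. From pESC to pESC-PGCLC the differences were -3.28 and -3.72 points, with -3.11 over all repeat entries. Of the members, 2240 (60.5%) were lower after induction in both lines, 293 were higher in both, 706 were lower only from female ESC and 431 lower only from pESC, ties aside. In L1Md entries the share lower in both was 70.4%, and over all repeat entries 61.6%. The female ESC mean was the higher starting point, 50.4% against 45.1% over the members, and the induced libraries ended at 44.4% and 41.6%.

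At least 25 points apart, 39 members were higher in ESC-PGCLC than in female ESC (0.804% of all repeat entries were) and 142 lower (2.23% of all repeat entries). After scaling to the same repeat mean the counts were 50 and 79, and without entries at 0 or 100% 23 were higher. From pESC to pESC-PGCLC, 19 members were higher (0.339% of all repeat entries were) and 52 lower (0.879% of all repeat entries), or 22 and 36 after scaling, and 12 higher without entries at 0 or 100%. L1_Mur3 showed the largest family difference from female ESC, -8.89 points (47.8% in ESC-PGCLC), ahead of L1Lx_III at -7.83 and Lx6 at -7.79. Lx2B2 at -3.77, L1_Mur2 at -4.18 and Lx3A at -4.76 showed the smallest. From pESC the range was narrower, from -4.74 points in Lx4A (44.2% against 48.9%), -4.49 in L1M5 and -4.44 in L1_Mur3 to -2.58 in the family Lx, -2.53 in Lx3B and -2.48 in L1Lx_I.

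An Lx2B2 entry (bases 6551 to 6987) was high in both induced libraries and low in the rest: 85.7% in ESC-PGCLC and 83.3% in pESC-PGCLC, against 20% in female ESC, 35.7% in pESC and 25% in PGC. It was among the 3 largest higher entries in both inductions. Levels such as 20%, 25% and 83.3% are simple fractions that few reads can give, and the depth behind them is unknown. An Lx6 entry (5791 to 7317) was high in ESC-PGCLC alone, at 70%, with 19.2% in female ESC and 30% to 40% in the others. The 3 entries with the largest lower value in ESC-PGCLC than in female ESC, the L1_Rod entry above among them, were low in every library but female ESC. An L1MB4 entry (5806 to 6164) had 91.7% in female ESC and 35.3% in pESC, then 30.5% in ESC-PGCLC and 27.0% in pESC-PGCLC, while PGC had 26.7%. An L1_Mur3 entry (1800 to 1877) had 80% there and 19.4% to 34.9% elsewhere. An L1_Rod entry (5551 to 5812) was lower in pESC-PGCLC alone, at 25% against 70% to 87.5% in the other 4 libraries. Because the 2 induction comparisons share no library, their values can be set side by side, but each rests on 1 library per side.

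The 2 induced libraries differed from each other by -2.36 points in Lx entries and -3.22 in the other names, pESC-PGCLC minus ESC-PGCLC, with -2.10 over all repeat entries and -1.64 over L1Md. At 25 points, 28 members were higher in pESC-PGCLC (0.459% of all repeat entries were) and 56 lower (0.823% of all repeat entries), or 34 and 43 after scaling. L1M2 (-3.79 points), L1MB7 (-3.73) and Lx9 (-3.52) differed most. The family Lx, at 40.7% against 41.3%, differed by -0.618 points, Lx7 by -1.07 and L1Lx_I by -1.17. In the family Lx the sign turned to 0.0570 points when only spans of at least 200 bases were used. Single entries with the largest differences included an Lx7 entry (6414 to 6960) at 90% in pESC-PGCLC and 27.3% in ESC-PGCLC, and an Lx3B entry (6331 to 6969) at 75% and 21.7%. In the reverse direction an Lx8 entry (7068 to 7152) had 33.3% in pESC-PGCLC and 90.9% in ESC-PGCLC, and an L1MA7 entry (5378 to 5450) had 23.8% and 74.2%.

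**Figure D3:**
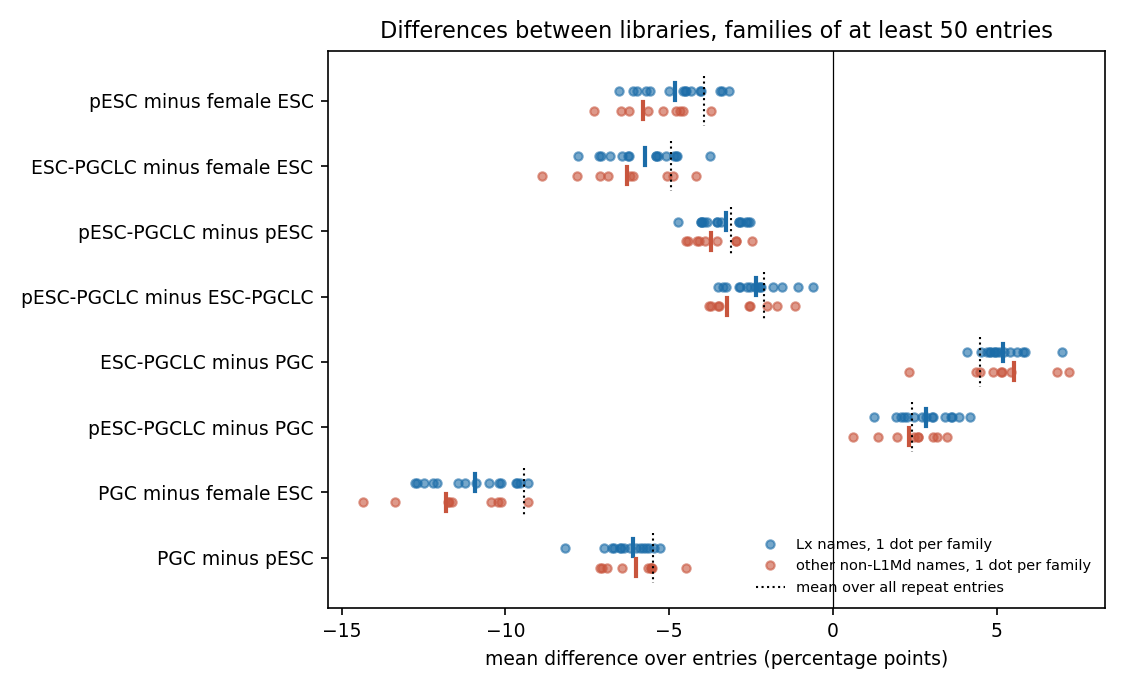
Mean difference over entries in percentage points (x axis) for the 8 comparisons (y axis), with 1 dot per family of at least 50 entries, coloured bars for the mean over all Lx or all other entries, and a dotted line for all repeat entries. Every family lies on the same side of 0 within a comparison, and PGC minus female ESC lies farthest from 0, from -14.3 points in L1MB7 to -9.30 in Lx5c.

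The comparison of each PGCLC library with PGC asks how near the induced cells came to germ cells of the gonad. Both induced libraries were more methylated. ESC-PGCLC exceeded PGC by 5.20 points in Lx entries and 5.53 in the other names (4.49 over all repeat entries), and pESC-PGCLC exceeded it by 2.84 and 2.31 points (2.39 over all repeat entries). These 2 comparisons share the PGC library. With the mean difference of all repeat entries taken out, the value for the other names in pESC-PGCLC was -0.0848 points, so that difference was no larger than over repeats at large. ESC-PGCLC was higher than PGC in 2879 members and lower in 806, and pESC-PGCLC was higher in 2471 and lower in 1216. The members' higher shares, 77.7% and 66.7%, were near those of all repeat entries, 78.0% and 68.3%.

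At least 25 points apart, 81 members were higher in ESC-PGCLC than in PGC (1.13% of all repeat entries were) and 19 lower (0.283% of all repeat entries), or 53 and 29 after scaling, and 10 lower without entries at 0 or 100%. For pESC-PGCLC, 48 were higher (0.802% of all repeat entries were) and 23 lower (0.377% of all repeat entries), or 39 and 31 after scaling. Without entries at 0 or 100%, and also with spans of at least 200 bases only, 13 were lower. L1MB7 (47.0% against 39.7%, 7.21 points), Lx5 (6.97) and L1M2 (6.83) differed most between ESC-PGCLC and PGC, and L1Lx_III (2.30), Lx7 (4.07) and L1Lx_I (4.36) least. For pESC-PGCLC the family Lx came first at 4.18 points (40.7% against 36.5%), then Lx3B at 3.85 and Lx2B2 at 3.63. L1Lx_III came last at 0.600 points, after Lx5c at 1.24 and L1M4 at 1.37.

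An Lx4A entry (bases 6232 to 7058) showed a wide spread over the libraries: 86.7% in female ESC, 81.8% in ESC-PGCLC, 70% in pESC, 37.5% in pESC-PGCLC and 14.3% in PGC. An Lx8 entry (6182 to 6786) had 83.3% in pESC-PGCLC and 15.4% in PGC, with 40.9% in ESC-PGCLC, and an Lx5 entry (6497 to 7050) had 91.7%, 32.3% and 59.4% in those libraries. In both entries PGC was far lower than either induced library, and farther below pESC-PGCLC than below ESC-PGCLC. An L1Lx_III entry (5977 to 6550) was instead low in ESC-PGCLC, at 25%, and between 59.1% and 80% in the other 4. An L1ME3G entry (5488 to 5583) had 80% in both female ESC and pESC-PGCLC, 66.7% in ESC-PGCLC, 28.6% in pESC and 17.6% in PGC.

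PGC and female ESC were the farthest apart. Lx entries differed by -10.9 points, PGC minus female ESC, and the other names by -11.8, with -9.44 over all repeat entries and -9.16 over L1Md. Of the members 3221 were lower in PGC, 475 (12.8%) higher and 8 equal; 13.1% of all repeat entries and 6.04% of L1Md entries were higher. At 25 points, 312 members were lower in PGC (5.12% of all repeat entries were) and 24 higher (0.583% of all repeat entries). The 24 became 9 without entries at 0 or 100%. The 312 made up 8.42% of the members, in 144 Lx entries (7.41%) and 168 of the other names (9.55%), beside 2.46% of L1Md entries. Scaling to the same repeat mean left 79 lower and 37 higher, so most of the 312 were within 25 points once the lower repeat mean of PGC was taken into account.

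L1MB7 differed by -14.3 points, L1_Mur3 by -13.4 and Lx4A by -12.8. Lx5c differed by -9.30 points, L1_Mur2 by -9.31 and Lx2 by -9.56. Besides the Lx4A entry above, an Lx3_Mus entry (bases 5681 to 7009) had 96.0% in female ESC and 25.7% in PGC, with 52.4% in pESC, 71.4% in ESC-PGCLC and 83.3% in pESC-PGCLC. PGC was the lowest library in both entries. The named entries higher in PGC were low in female ESC alone: an Lx2B2 entry (4624 to 6011) had 5.88% there and 37.5% to 55.6% elsewhere, and an L1Lx_I entry (6264 to 6454) had 9.38% and 26.7% to 47.5%.

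Against pESC the PGC library differed by -6.12 points in Lx entries and -6.03 in the other names (-5.50 over all repeat entries). At 25 points, 67 members were lower (1.19% of all repeat entries were) and 18 higher (0.195% of all repeat entries), or 23 and 24 after scaling. The 18 became 11 without entries at 0 or 100%, and 11 with spans of at least 200 bases only. Lx4A (-8.17 points), L1M2 (-7.12) and L1MB7 (-7.04) were the families farthest apart, and Lx8 (-5.48), Lx5c (-5.27) and L1Lx_III (-4.50) the nearest. Unscaled, the members' shares were 1.81% lower and 0.486% higher, both above those of all repeat entries. The scaled counts were close to each other, with no scaled share of all repeat entries beside them. An Lx entry (bases 6138 to 6654) had 72.7% in pESC and 18.8% in PGC but was listed at 0 in female ESC, with 50% and 40% in ESC-PGCLC and pESC-PGCLC. In the other direction an Lx7 entry (6417 to 6648) had 75% in PGC and 25% in pESC. The 2 comparisons of PGC with a stem cell line share the PGC library.

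In percentage points, the distance between PGC and female ESC was wider in entries of higher level. Entries were put in bins by their mean over the 5 libraries, which includes both libraries compared, so the pattern is a description. Members under 10% (152 entries) averaged 5.25% in female ESC and 7.0% in PGC, a difference of 1.75 points. From 10% to 30% the difference was -4.14 points over 510 entries, from 30% to 50% it was -11.5 over 1665, from 50% to 70% -15.1 over 1206, and at 70% and over -16.2 over 171. Lx entries and the other names ran alike, ending at -15.2 and -17.1 points in the highest bin. L1Md entries ended at -9.07 points there, and at -10.6 points in the bin below. As a ratio the order above 30% was the reverse: the PGC mean of members was 75.6%, 77.2% and 80.9% of the female ESC mean in the 3 upper bins, and that of L1Md entries 81.4%, 83.7% and 88.6%. The difference between these sets of entries was not tested.

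**Figure D4:**
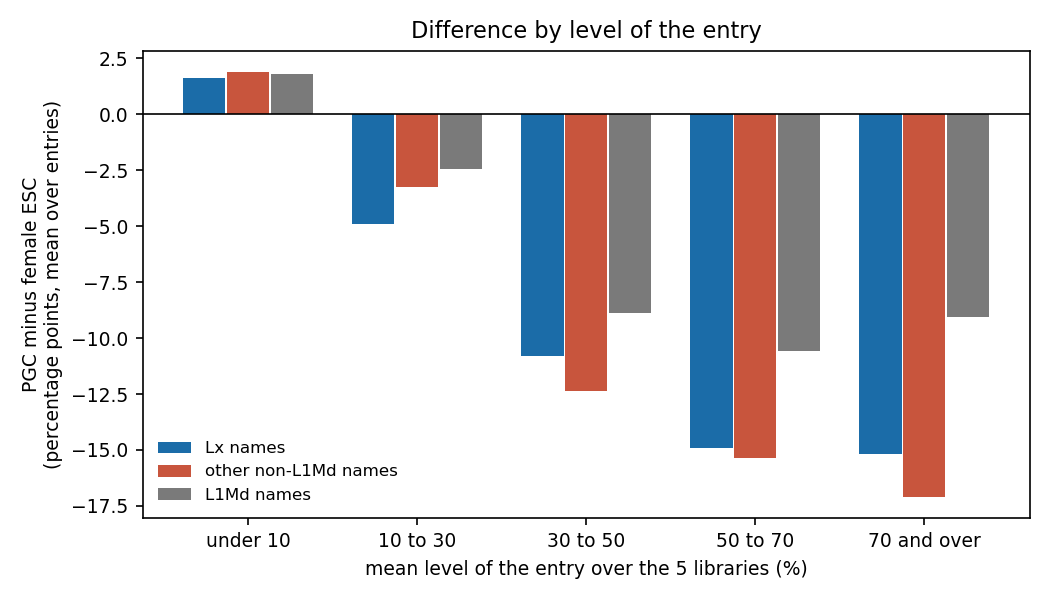
PGC minus female ESC in percentage points (y axis, mean over entries) by the mean level of the entry over the 5 libraries (x axis, percent), for Lx, other non-L1Md and L1Md names. Bars start at 0; the difference is above 0 under 10% and reaches -15.2 points in Lx entries and -17.1 in the other names at 70% and over.

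Some members stood at 1 end of the scale in every library. Under 10% in all 5 libraries were 80 members (2.16%), 40 with Lx names and 40 with other names, beside 0.452% of L1Md entries and 4.06% of all repeat entries. Lx8, the largest family with 376 entries, held 15 of the 40 Lx entries. All 15 lay between bases 6332 and 7473 of its consensus, near the 3′ end where most Lx entries lie, and several overlap. One of them (6924 to 7473) had 1.59% in female ESC and 1.95% in pESC, 2.60% and 2.54% in their PGCLC, and 2.07% in PGC. Exactly 0 was listed in all 5 libraries for 3 members: Lx7 (5379 to 5797), Lx5 (6127 to 6987) and L1MA9 (6231 to 6312). With depth unknown, no upper limit can be put on these zeros. The entries of this paragraph and the next were singled out after their values were seen.

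At 70% or more in all 5 libraries stood 44 members (1.19%), 17 Lx and 27 others, beside 4.40% of L1Md entries and 3.68% of all repeat entries. L1Lx names held 10 of the 27. An L1_Mur2 entry (bases 3361 to 5265) had 98.2% in female ESC and 98.4% in ESC-PGCLC, 96.7% in pESC and 93.7% in pESC-PGCLC, and 90.5% in PGC. An Lx4A entry of 44 bases (5989 to 6032) had 98.1%, 96.6%, 94.0%, 93.9% and 91.2%. Both were lowest in PGC, as the family means were, but by under 8 points against female ESC. Only 123 members (3.32%) had all 5 levels within 5 points.

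Short entries varied more between libraries than long ones, while their mean differences were alike. Among members of up to 100 bases, 16.4% were at least 25 points apart between PGC and female ESC in either direction. The share was 13.3% above 100 and up to 200 bases, 9.60% up to 500, 7.85% to 1000, 4.64% to 2000 and 1.48% above 2000 bases. The mean difference stayed between -11.7 and -10.8 points in all 6 length classes, and the SD of the differences went from 16.4 points in the shortest to 7.07 in the longest. L1Md entries ran from 12.1% to 1.56% over the same classes. Members were shorter than L1Md entries, and above 200 and up to 500 bases their share was 9.60% against 4.52% in L1Md entries. Read depth per entry is unknown, and its part in the share of distant entries was not tested.

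**Figure D5:**
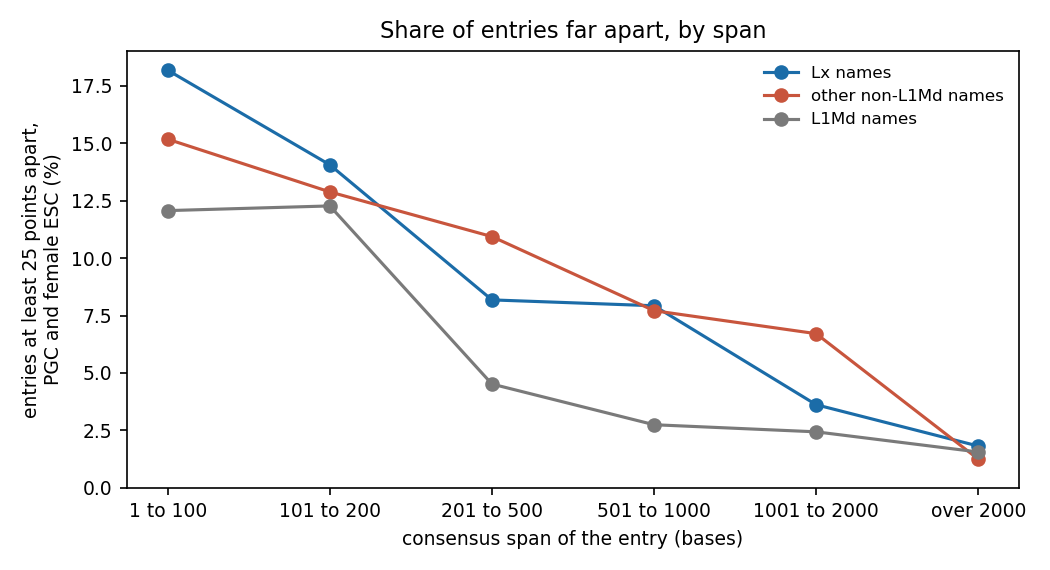
Share of entries in percent (y axis) at least 25 points apart between PGC and female ESC, by consensus span in bases (x axis), for Lx, other non-L1Md and L1Md names. The share is lowest above 2000 bases in all 3 sets, and the members together go from 16.4% in the shortest class to 1.48% in the longest.

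By place in the consensus, the 77 Lx entries of the first of 3 equal parts, the 5′ side, were the better methylated in PGC: 44.5% (SD 18.0) beside 53.1% in female ESC, a ratio of 83.7%. In the last part the 1831 Lx entries had 38.1% (SD 14.8) and 49.1%, a ratio of 77.5%. Median spans were 924 bases in the first part and 508 in the last. Among the other names the ratios were 78.9% in the first part (384 entries) and 76.4% in the last (1230). L1Lx entries had 80.7% and 80.2%, so there the ends were alike. The SDs here are spreads over single entries and do not measure the precision of the means or ratios. The contrast between the parts was not tested.

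Across the 3704 entries, levels of different libraries were correlated with Pearson coefficients between 0.811 (female ESC and PGC) and 0.894 (pESC and ESC-PGCLC). All 4 pairs with female ESC had lower coefficients than the 6 pairs without it. Female ESC was also the library that listed the fewest entries of these families, 3806, against 4680 in pESC and 4817 in PGC, 4905 in ESC-PGCLC and 4843 in pESC-PGCLC. Of 5495 entries listed anywhere, 1791 were left out because a library lacked them, and 532 of these lacked female ESC alone. Entries at exactly 0 numbered 58 in female ESC and 15 to 36 in the others, and entries at exactly 100% numbered 32 against at most 2. Shallower coverage of female ESC and a difference in the cells cannot be told apart from these levels.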

How the data were processed

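The 5 libraries were made by MspI digestion, adapter ligation and bisulfite conversion and sequenced as paired reads, per the labels' protocols. Bismark 0.16.3, Bowtie2 and the build mm10 are named in the submitters' processing notes; the sources used here do not give trimming, coverage filters or how reads and copies were combined within an entry. The authors deposited 1 methylation level per region and cytosine context as a fraction from 0 to 1, multiplied here by 100. No read counts or coverage accompany it, so precision is unknown and no test or interval was computed.

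Entries listed in CpG context by all 5 libraries were averaged with equal weight, with Python 3.11.15, pandas 2.3.3 and numpy 2.4.6. Differences are means of per-entry differences, and an entry was counted at 25 points or more. The counting was run on simulated levels with larger shifts and no noise, which checks the arithmetic and not the counts' precision. Families of at least 50 entries were named by rule: the 5 highest and 5 lowest in female ESC, and the 3 largest and 3 smallest differences per comparison. Named entries are a choice among up to 3 per direction with the largest difference and neither level at 0 or 100%. The members and name groups were chosen with earlier results of these data known. Alternatives used medians, all entries listed in the libraries compared, no entries at 0 or 100%, equal family weights, the CHH level taken out, spans of at least 200 bases, thresholds of 10 and 40 points, the repeat mean taken out or scaled away, and L1Lx counted with Lx. For a difference between libraries the median is that of the per-entry differences, and for the gap it is the Lx median minus the other median. A moved value is one beyond 1.5 times the reported one, or 5 points for a level.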

Additional observations from a re-analysis of the deposited data

Results flagged for a closer look

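Lx2B, a family of 48 Lx entries, was the family among those with at least 20 entries whose mean went opposite ways in the 2 inductions. Its mean was 53.0% in female ESC, 44.4% in ESC-PGCLC, 45.8% in pESC, 46.4% in pESC-PGCLC and 39.0% in PGC. The difference was -8.66 points from female ESC to ESC-PGCLC and 0.610 points from pESC to pESC-PGCLC. The difference between these changes was not tested, since each rests on 1 library per side. The second value became -1.59 points with the median of the per-entry differences and -0.229 points with all entries that the libraries compared listed.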

How the results depend on the processing

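No paired analysis was possible because each group had 1 library. All 70 alternative mean levels stayed within 5 points, and every mean difference kept its direction, except that of the other names between pESC-PGCLC and PGC (-0.0848 with the repeat mean taken out). That setting left, for Lx and other names, -0.878 and -1.86 in pESC against female ESC, -0.789 and -1.35 in ESC-PGCLC against female ESC, -0.168 and -0.611 in pESC-PGCLC against pESC, -0.258 and -1.12 between the induced libraries, 0.705 and 1.04 in ESC-PGCLC against PGC, 0.447 for Lx in pESC-PGCLC against PGC, -1.49 and -2.38 in PGC against female ESC, and -0.615 and -0.526 in PGC against pESC. The gap between Lx and other names was -3.61 with medians in female ESC. With equal family weights it was -0.580 in pESC, -1.06 in ESC-PGCLC and 0.0692 in pESC-PGCLC. With L1Lx and LX3 counted with Lx, chosen after seeing the data, it was -0.361, -0.928, 0.431 and -0.0123 in pESC, ESC-PGCLC, pESC-PGCLC and PGC. With all entries listed it was -1.46 in pESC-PGCLC.

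Counts of distant members moved most. The alternative counts cover the members only, so they cannot be set against repeats at large. Higher and lower counts at 10 points were 159 and 845 for pESC against female ESC, 183 and 1020 for ESC-PGCLC against female ESC, 152 and 555 for pESC-PGCLC against pESC, 166 and 469 for pESC-PGCLC against ESC-PGCLC, 831 and 94 for ESC-PGCLC against PGC, 457 and 189 for pESC-PGCLC against PGC, 111 and 2060 for PGC against female ESC, and 95 and 995 for PGC against pESC. At 40 points they were 10 and 37, 15 and 43, 6 and 9, 11 and 15, 19 and 6, 13 and 5, 4 and 76, and 5 and 7 in that order. Scaling gave 73, 79, 79 and 23 lower for pESC, ESC-PGCLC and PGC against female ESC and PGC against pESC, 37 higher for PGC against female ESC, and 53 higher and 29 lower for ESC-PGCLC against PGC. With all listed entries, more of which enter, the counts were 34 and 96 for pESC-PGCLC against pESC, 60 and 104 between the induced libraries, 131 and 53 for ESC-PGCLC and 88 and 64 for pESC-PGCLC against PGC, and 51 and 135 for PGC against pESC. Without entries at 0 or 100%, fewer enter: higher counts were 20, 23, 12, 9 and 11 for pESC and ESC-PGCLC against female ESC, pESC-PGCLC against pESC, and PGC against female ESC and pESC, and lower counts 10 and 13 for ESC-PGCLC and pESC-PGCLC against PGC. Spans of at least 200 bases gave 77 lower in pESC than in female ESC, 13 lower in pESC-PGCLC than in PGC and 11 higher in PGC than in pESC.

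Among families, pESC-PGCLC minus PGC turned in L1MA4 (0.946 with medians, 2.18 with all entries, 0.995 with long spans), L1MA6 (0.466 with medians, 0.832 without 0 or 100%), L1MC (0.0513 with all entries) and L1ME1 (1.65, 0.100 and 0.0848 with medians, all entries and without 0 or 100%). Lx2A1 turned in pESC against female ESC (-2.63, -0.592 and -1.14 in the same settings), Lx2B in pESC-PGCLC against pESC (-1.59 and -0.229 with medians and all entries) and against ESC-PGCLC (-0.121 with all entries), and the family Lx between the induced libraries (0.0570 with long spans). Medians in this paragraph are those of the per-entry differences. Apart from the settings' own construction, the cause was not tested. Depth is unknown and limits every single entry.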
